A study of Mus musculus with 4 samples.

Results

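The 10 genes described here, Bcl2, Bcl2l1, Mcl1, Bax, Bak1, Bcl2l11, Bbc3, Pmaip1, Bid and Bad, are the core of the Bcl2 family that controls mitochondrial apoptosis, and they were examined for N6-methyladenosine (m6A) in the RNA of mouse foetal liver cells. They were fixed by name, out of 21951 protein-coding genes of the annotation. A gene was given a peak when the summit of an m6A peak lay in one of its exons. By this rule they held 14 of the 15635 peaks of replicate 1 and 11 of the 14872 peaks of replicate 2. Their peaks were chosen by position alone, and no measured value entered the choice of peaks. The genes themselves were chosen with earlier results of these data known.

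The samples were Kit+ cells from C57BL/6 foetal liver, enriched on magnetic columns (MACS). c-Kit is the receptor that marks haematopoietic stem and progenitor cells. The methods of the study give the genotype as Ythdf2 CTL (Ythdf2 fl/fl), the control to a conditional deletion. The floxed allele of these mice also encodes a GFP-YTHDF2 fusion. There were 2 biological replicates and no second condition, so no groups were compared. RNA fragments carrying m6A were pulled down with an antibody and sequenced (meRIP-seq), giving 1 immunoprecipitation (IP) library and 1 peak list per replicate. The 2 input libraries of the series were not analysed here.

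m6A is deposited on adenosines of messenger RNA by a nuclear methyltransferase complex, mostly within the consensus DRACH (A, G or T, then A or G, then AC, then A, C or T), of which GGAC is a favoured core, and it gathers around stop codons and in 3′ untranslated regions (UTRs). Ythdf2 is a cytoplasmic reader that binds m6A and speeds decay of the transcript. In the Bcl2 family, the prosurvival proteins Bcl2, Bcl2l1 (Bcl-xL) and Mcl1 hold the effectors Bax and Bak1 in check, the effectors open pores in the outer mitochondrial membrane, and the BH3-only proteins Bcl2l11 (Bim), Bbc3 (Puma), Pmaip1 (Noxa), Bid and Bad bind the former or activate the latter. Mcl1 is a known requirement for haematopoietic stem cell survival.

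The GGAC sites nearest to the summits of the last-exon peaks seen in both replicates are shown first, except for Bid, which had none within 50 nt in either. Each line gives the sense strand of 30 nt of the spliced transcript (sequence from GENCODE M21, build mm10), with the GGAC nearest to the summit in capitals. The Bcl2 site of replicate 2 holds another GGAC, left in lower case. These are sequence matches near a summit, and meRIP-seq does not resolve which adenosine was methylated.
Bcl2 exon 2, 3′ UTR, nearest to the replicate 1 summit, chr1:106542646-106542675, − strand: atacccagtcagaGGACaaaggctggaaac
Bcl2 exon 2, 3′ UTR, nearest to the replicate 2 summit, chr1:106542699-106542728, − strand: cctggtcttccatGGACtggagaagggact
Bbc3 exon 4, 3′ UTR, chr7:16317330-16317359, + strand: catgtagcatactGGACtgccagccttgcc
Bcl2l11 exon 4, 3′ UTR, chr2:128158347-128158376, + strand: caggatacgtggcGGACatggctcttgttc
Mcl1 exon 3, 3′ UTR, chr3:95660893-95660922, + strand: tatttatgaaggtGGACttgaagctgccca
Bcl2l1, across the junction of exons 2 and 3, coding sequence, A at position 152782281 of chromosome 2, − strand: agaacggcggctgGGACacttttgtggatc
Bad, across the junction of exons 3 and 4, coding sequence, A at position 6951401 of chromosome 19, + strand: gggttccttcaagGGACttcctcgcccaaa

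The next 3 sequences are coding windows centred on the replicate 1 summit of the coding peak of each prosurvival gene, with DRACH in capitals (overlapping matches run together). They are shown because these peaks fell over codons of the conserved Bcl2 homology (BH) regions.
Bcl2 exon 1, chr1:106712429-106712529, − strand: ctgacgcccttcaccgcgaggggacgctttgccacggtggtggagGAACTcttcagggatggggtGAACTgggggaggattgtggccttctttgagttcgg
Mcl1 exon 2, chr3:95659783-95659883, + strand: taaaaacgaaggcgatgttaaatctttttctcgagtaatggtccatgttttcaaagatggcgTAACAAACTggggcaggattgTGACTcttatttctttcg
Bcl2l1 exon 2, chr2:152829667-152829767, − strand: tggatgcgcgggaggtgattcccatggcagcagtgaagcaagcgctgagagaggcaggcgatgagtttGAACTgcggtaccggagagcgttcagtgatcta

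Across all genes, the exonic peaks numbered 12710 in replicate 1 and 12204 in replicate 2. Their median fold enrichment, the IP pileup over the local background with 1 added to each, was 4.18 and 4.39. The median summit held 68 and 66 IP reads over a background of 17 and 13 control reads. Of the marker genes of haematopoietic stem and progenitor cells, 7 of 10 had a peak in both replicates, and Kit, Myb and Ptprc had none. The counts for the other marker lists were 4 of 7 for erythroid cells, 2 of 6 for hepatocytes (Apoa1 and Hnf4a, with none at Alb), 1 of 4 for macrophages and 1 of 4 for endothelial cells. Over all protein-coding genes, 30.9% had a peak in both replicates. A peak needs both an expressed transcript and methylation, so a missing peak cannot tell low expression from low methylation, and the part of other cell types in the peaks of the Bcl2 family was not tested.

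The spread between replicates was taken from 11524 peaks that overlapped one to one. The log2 ratio of fold enrichment (replicate 2 over replicate 1) had an SD of 0.47, and 95% of pairs lay between −0.88 and 1.06. IP reads at paired summits varied less than Poisson sampling would give, with a variance 0.469 times the Poisson value (0.651 times for background reads), although the summits coincided in 4.95% of pairs and lay a median of 16 nt apart. The replicates were kept as 2 samples. Intervals quoted for reads and their ratios assume Poisson counting, from which these pairs departed, and cover no other error.

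Of the 10 genes, 7 had an exonic peak in both replicates, against 30.9% of all protein-coding genes. Counted by replicate, 8 genes had a peak in replicate 1, where the share over all genes was 34.4%, and 7 in replicate 2, where it was 33.5%. All 3 prosurvival genes (Bcl2, Bcl2l1, Mcl1) and 4 of 5 BH3-only genes (Bcl2l11, Bbc3, Bid, Bad) were among the 7, and neither effector was. Bak1 had a peak in replicate 1 only, and Bax and Pmaip1 had none. No test was made, since the genes were chosen with results of these data known and there was 1 condition.

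The share of genes with a peak rose with the length of exon sequence of the gene, taken over all its transcripts. Among all protein-coding genes with up to 1000 nt of exon sequence, 6.54% had a peak in both replicates, and this share was 18.4% between 1000 and 2000 nt, 29.5% between 2000 and 3000 nt, 40.1% between 3000 and 5000 nt and 48.1% above that. Bax was the shortest of the 10 genes, with 867 nt. Both genes between 3000 and 5000 nt (Mcl1 and Bcl2l1) and both above it (Bcl2l11 and Bcl2) had peaks in each replicate. Of the 4 genes between 2000 and 3000 nt, Bid and Bad did and Bak1 and Pmaip1 did not. Bbc3 had peaks in both replicates with 1814 nt.

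The fold enrichment of each gene's strongest peak by q averaged 18.5 ± 6.90 (SD, n = 2) for Bcl2, which was above 99.8% of the 6780 protein-coding genes with a peak in both replicates. Bbc3 followed with 12.3 ± 5.98 (SD, n = 2), above 97.8% of genes. Bad (6.77 ± 5.66), Bcl2l11 (6.49 ± 2.15), Bcl2l1 (5.01 ± 0.523), Mcl1 (4.59 ± 0.415) and Bid (3.75 ± 0.325; SD, n = 2 for each) came next. The median over the 7 genes was 6.49, against 4.74 over all 6780 genes. When all peaks of a gene were averaged, the medians were 4.60 and 4.42. The strongest peak lay at different places in the 2 replicates for Bad and Bcl2l11, so their means do not describe a single site. Neighbours in this order overlapped in their replicate values, except that both Mcl1 values lay above both Bid values.

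**Figure D1:**
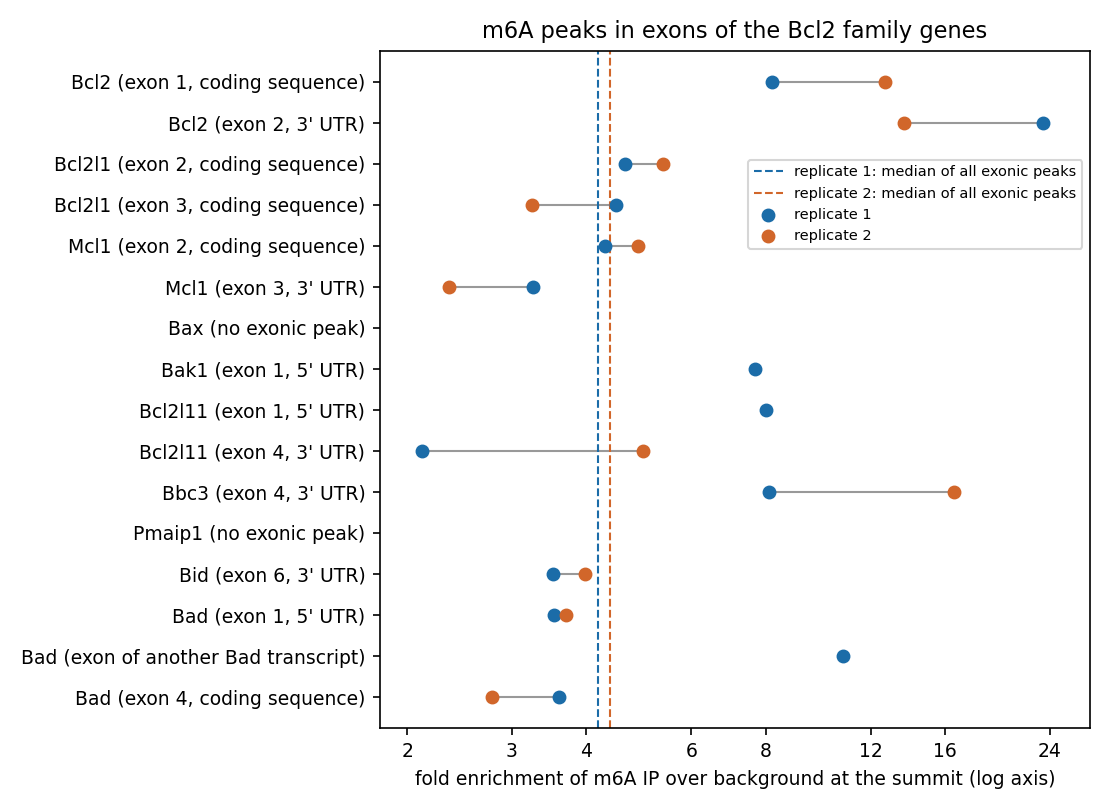
Fold enrichment of m6A IP over background at the summit of each exonic peak of the 10 Bcl2 family genes (x axis, log scale), by gene, exon and region (y axis). Points are the 2 replicates, grey lines join overlapping peaks, and dashed lines mark the medians of all exonic peaks, 4.18 and 4.39. The Bcl2 and Bbc3 peaks lie to the right of both medians in each replicate, and 3 peaks, in Bak1, Bcl2l11 and Bad, have a replicate 1 point only.

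Bcl2 carried 2 peaks in each replicate, 1 in each of its exons. The gene lies on the − strand of chromosome 1 (mm10, 106538178 to 106714274). The exon 2 peak lay in the 3′ UTR, with its summit 587 nt after the stop codon in replicate 1 and 558 nt after it in replicate 2. It was 23.4-fold enriched in replicate 1 (−log10 q of 50.1) and 13.7-fold in replicate 2 (−log10 q of 32.7). In replicate 1 this was the value of rank 3 among all 12710 exonic peaks, and in replicate 2 the value of rank 204 among 12204.

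The IP reads behind the Bcl2 3′ UTR peak were few but alike. The summit held 40 IP reads (exact Poisson 95% interval 28.6 to 54.5) in replicate 1 and 42 (30.3 to 56.8) in replicate 2. Its background came to 0.859 and 2 control reads. Without the pseudocount, the ratio of IP to background was 20 in replicate 2, with a wide exact 95% interval of 5.2 to 170. In replicate 1 the ratio was 53.2, with no interval because the background was not a whole number of control reads. The log2 ratio between replicates, −0.78, lay inside the 95% range of all pairs. With no pseudocount the mean fold of this peak rose from 18.5 to 36.6. Within 50 nt of the summit the transcript held 3 GGAC in each replicate, the nearest 19 nt and 5 nt from the summit.

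The exon 1 peak of Bcl2 was wide (1718 and 1621 bp), and its summit lay in the coding sequence 307 and 315 nt before the stop codon. It was 8.20-fold enriched on 43 IP reads over 4.99 control reads in replicate 1. In replicate 2 it was 12.7-fold enriched on 39 IP reads over 2 control reads. The summits were 8 nt apart. They lay 16 and 24 nt before the codons of the Asn-Trp-Gly-Arg sequence, a hallmark of the BH1 region, which the translated transcript holds once, at codon 140 of 236. The single GGAC within 50 nt is followed by G and falls outside DRACH, and both DRACH matches in the window printed above are GAACT.

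Mcl1 also carried 2 peaks in each replicate, 1 in the coding sequence and 1 close to the stop codon. The gene lies on the + strand of chromosome 3 (95658788 to 95663176). The exon 2 peak was 4.29-fold enriched on 127 IP reads over 33 control reads in replicate 1 (−log10 q of 37.0). In replicate 2 it was 4.88-fold enriched on 122 over 23 (−log10 q of 38.9). Of the peak, 63.2% in replicate 1 and 63.5% in replicate 2 lay in exon sequence of the transcript. The summits, 6 nt apart and 290 and 284 nt before the stop codon, lay 17 and 11 nt before the Asn-Trp-Gly-Arg codons of Mcl1 (codon 241 of 331).

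The coding peaks of Bcl2 and Mcl1 thus had their summits at matching places of the 2 proteins. In both replicates the summits lay between 11 and 24 nt upstream of the same 4 codons. Replicate summits of a gene belong to overlapping peaks, so the match is between 2 genes and not among 4 independent values. The match was seen after the sequences were inspected, is given for the nearest of the BH hallmarks searched, and has no test. In both genes the first of these 4 codons, AAC, formed part of a DRACH match (GAACT in Bcl2, AAACT in Mcl1). Bcl2l1 did not share the place, since its exon 2 summit lay 132 nt before its own Asn-Trp-Gly-Arg codons.

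The exon 3 peak of Mcl1 was 3.26-fold and 2.35-fold enriched in replicates 1 and 2, below the median of exonic peaks in each. It rested on the most IP reads of any peak of the family, 164 and 162, over the highest backgrounds, 56.7 and 65 control reads. Its summits lay in the 3′ UTR 162 and 95 nt after the stop codon. The GGAC printed above was 75 nt from the replicate 1 summit and 8 nt from the replicate 2 summit.

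Bcl2l1 had 2 peaks in each replicate, both in coding sequence (− strand of chromosome 2, 152780668 to 152831728). The exon 2 peak had its summit at the same base in both replicates, position 152829717. It was 4.64-fold enriched on 109 IP reads over 26 control reads (−log10 q of 34.8) in replicate 1, and 5.38-fold on 112 over 19 (−log10 q of 39.1) in replicate 2. The summit lay 6 nt after the start of the codons for Leu and, after 3 residues, Gly-Asp, the hallmark of the BH3 region (codon 90 of 233). No GGAC lay within 50 nt of this summit, the nearest being 78 nt away, and the 1 DRACH match was GAACT.

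The exon 3 peak of Bcl2l1 lay at the start of the last exon, with summits 4 and 8 nt from the exon edge and 131 and 127 nt before the stop codon. It was 4.48-fold enriched on 70 IP reads over 17 control reads in replicate 1 (−log10 q of 21.7). In replicate 2 it was 3.24-fold enriched on 50 over 14 (−log10 q of 9.13). Of the peak, 58.1% and 61.8% lay in exon sequence of the transcript, the rest in the intron next to it. The GGAC printed above, 3 and 7 nt from the summits, spans the exon junction in the spliced RNA and overlaps the Gly-Trp-Asp codons of the BH2 region (codon 187).

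**Figure D2:**
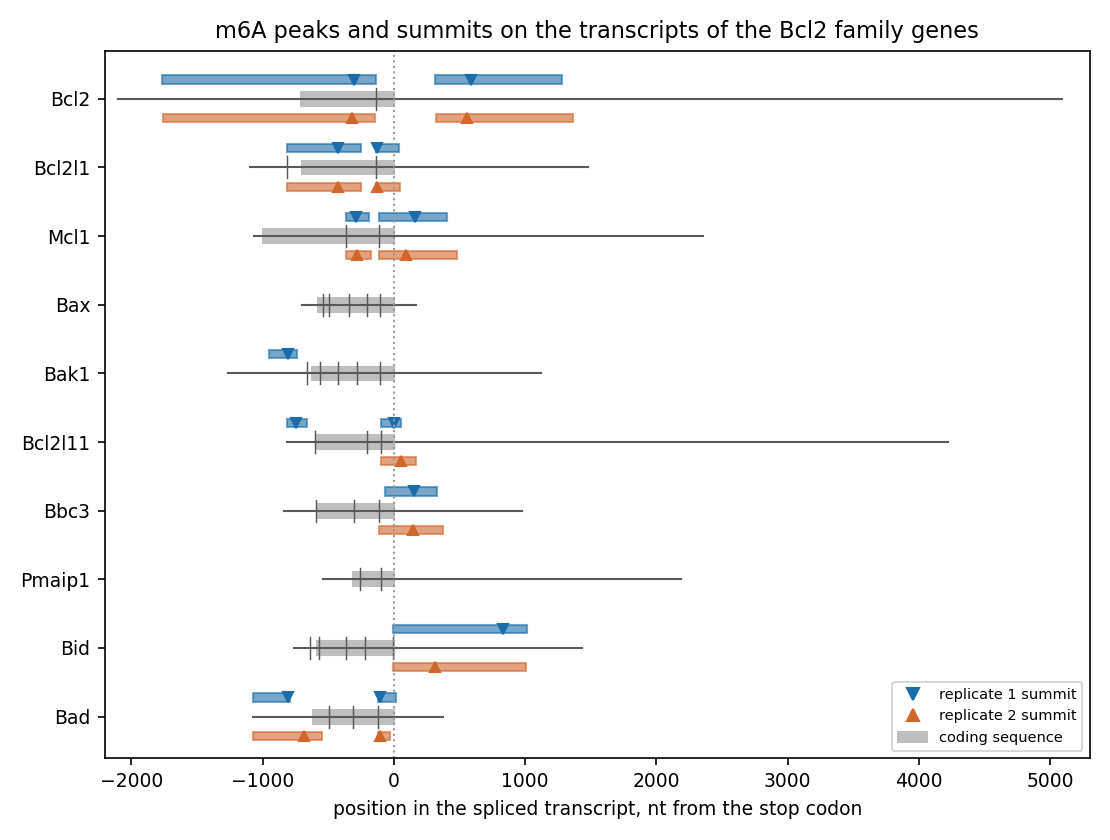
Peaks (coloured bars) and summits (triangles) of both replicates on the spliced transcript with the longest coding sequence of each gene. The x axis is the position in nt from the stop codon (dotted line), grey boxes are coding sequence and ticks are exon junctions. Summits of Bbc3, Bcl2l11 exon 4, Mcl1 exon 3, Bcl2l1 exon 3 and Bad exon 4 lie within 200 nt of the stop codon, while those of Bak1 and of Bcl2l11 and Bad exon 1 lie before the start codon.

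Neither effector had an exonic peak in both replicates. Bax (− strand of chromosome 7, 45461697 to 45466898), the cytosolic effector that moves to mitochondria, had no exonic peak in either replicate. Bak1 (− strand of chromosome 17, 27019810 to 27029009), the effector resident in the outer membrane, had a 217-bp peak in the 5′ UTR in replicate 1, 180 nt before the start codon. It was 7.67-fold enriched on 67 IP reads over 8.99 control reads (−log10 q of 34.9) and had no counterpart in replicate 2. Of the 1753 exonic peaks of replicate 1 with at least this q, 19 (1.08%) had no counterpart, against 15.8% of all exonic peaks. The Bak1 peak held no DRACH within 50 nt of its summit.

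Bbc3, the p53 target that binds all prosurvival proteins, had 1 peak in each replicate, in the 3′ UTR of its last exon (+ strand of chromosome 7, 16308393 to 16318205). The summits lay 152 and 149 nt after the stop codon, 3 nt apart. The peak was 8.11-fold enriched in replicate 1 (−log10 q of 45.4) and 16.6-fold in replicate 2 (−log10 q of 69.1), where it had rank 60 among 12204 exonic peaks. The IP reads were 85 and 86, and the background 11 and 4 control reads. Without the pseudocount, the ratio of IP to background was 8.84 (exact 95% interval 4.70 to 18.4) in replicate 1 and 20.5 (7.71 to 76.8) in replicate 2, and the intervals overlapped. The log2 ratio of 1.03 lay just inside the 95% range of all pairs. The summits were 39 and 36 nt from the GGAC printed above, 1 of 2 within 50 nt.

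Bcl2l11, a BH3-only protein that activates the effectors directly, had a peak around the stop codon in both replicates and a second peak in the 5′ UTR in replicate 1 (+ strand of chromosome 2, 128126038 to 128162547). The stop codon peak was 2.12-fold enriched in replicate 1 (−log10 q of 2.90) on 40 IP reads over 21 control reads. In replicate 2 it was 4.97-fold enriched (−log10 q of 14.9) on 46 over 8. Its log2 ratio, 1.23, was the single one of the 11 pairs in these genes that lay outside the 95% range of all pairs. The exact 95% intervals of the ratio without pseudocount, 1.25 to 3.89 and 2.56 to 13.4, overlapped. The summits, 4 and 54 nt after the stop codon, lay on either side of the same GGAC, at 31 and 19 nt.

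The 5′ UTR peak of Bcl2l11 was 8.01-fold enriched on 21 IP reads (exact Poisson 95% interval 13 to 32.1) over 2 control reads, with its summit 159 nt before the start codon. It had no counterpart in replicate 2 and no DRACH within 50 nt. Of the exonic peaks of replicate 1 with at least its q (13.4 on the −log10 scale), 5.13% had no counterpart.

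Bid, which links death receptors to mitochondria after cleavage by caspase 8, had 1 wide peak per replicate in its last exon (− strand of chromosome 6, 120891930 to 120916853), 1151 and 1146 bp long. The peaks ran over nearly the same bases, but their summits lay 513 nt apart, 828 and 315 nt after the stop codon. Enrichment was 3.52-fold on 153 IP reads over 48.9 control reads in replicate 1 (−log10 q of 34.7). It was 3.97-fold on 156 over 36.6 in replicate 2 (−log10 q of 39.1). Neither summit had a GGAC within 50 nt.

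Bad, whose binding to prosurvival proteins is controlled by phosphorylation, had 3 exonic peaks in replicate 1 and 2 in replicate 2 (+ strand of chromosome 19, 6941861 to 6951899). The exon 4 peak had its summit at position 6951419 in both, 103 nt before the stop codon and 20 nt into the exon. It was 3.60-fold enriched on 80 IP reads over 24.6 control reads in replicate 1 (−log10 q of 18.8). In replicate 2 it was 2.77-fold enriched on 66 over 22 (−log10 q of 9.21). Of the peak, 53.1% in replicate 1 and 46.4% in replicate 2 lay in exon sequence of the transcript. The GGAC printed above, 18 nt from the summit, begins with the first base of exon 4.

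The exon 1 peak of Bad was 3.52-fold enriched in replicate 1 (21 IP reads, background 5.99, −log10 q of 4.74) and 3.69-fold in replicate 2 (30 IP reads, background 7, −log10 q of 6.60). Its summits also lay in an exon of Gpr137, and the peak lists carry no strand, so the gene of origin cannot be told apart. The strongest Bad peak, in replicate 1 only, was 10.8-fold enriched on 70 IP reads over 6.39 control reads (−log10 q of 46.6). Its summit lay in an exon of a single Bad transcript, 17 nt outside exon 2 of the transcript used for positions. Exons of the latter transcript held 35.6% of the peak. Of the 611 exonic peaks of replicate 1 with at least this q, 2 (0.327%) had no counterpart.

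The 3 replicate 1 peaks without a counterpart (Bak1, Bcl2l11 and Bad) had widths of 217, 221 and 222 bp, and lay in the 5′ UTR or, for Bad, just before exon 2. Over all genes, 25.3% and 26.3% of peaks near the start codon lacked a counterpart in replicates 1 and 2, and 12.9% and 7.64% of those near the stop codon. All 11 peaks of replicate 2 had a counterpart.

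**Figure D3:**
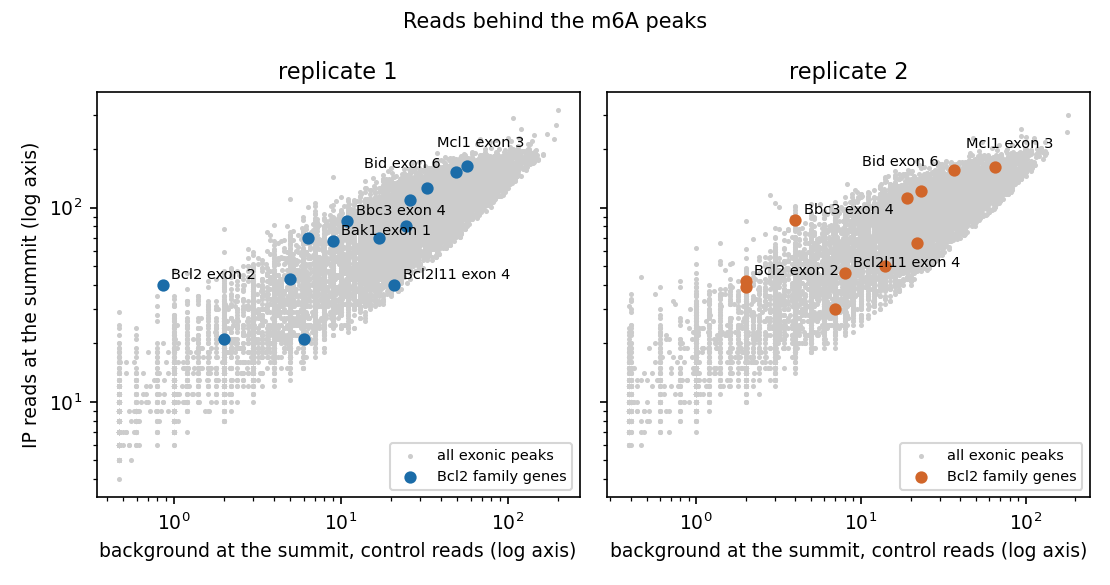
IP reads (y axis) against background in control reads (x axis) at the summit, both on log scales, for all exonic peaks (grey) and for peaks of the 10 genes (coloured), by replicate. The Bcl2 peaks have the lowest backgrounds of the family, 0.859 control reads (exon 2) in replicate 1 and 2 (both exons) in replicate 2, and Mcl1 exon 3 the highest, 56.7 and 65. Bbc3 exon 4 keeps its height, 85 and 86 IP reads, and moves along the x axis.

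In most pairs of overlapping peaks the replicates differed in the background more than in the IP reads. This held for 8 of the 11 pairs in the Bcl2 family genes and for 9317 of all 11524 pairs. The median absolute log2 ratio was 0.07 for IP reads and 0.45 for background in the family, and 0.12 and 0.38 over all pairs. Over all pairs, background reads of replicate 2 were 0.821 times those of replicate 1, against 0.982 times for IP reads. The log2 ratios were not adjusted for this shift, and backgrounds were also the smaller counts. The peaks with the highest folds, those of Bcl2 and Bbc3, had backgrounds between 0.859 and 11 control reads.

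Of the 7 genes with peaks in both replicates, 4 (Bcl2, Bcl2l1, Mcl1 and Bad) had 2 or more in each, against 35.2% of all genes with peaks in both. Without summits that also lie in exons of other genes, which takes out the exon 1 peaks of Bad, the count was 3 of 7, against 33.9%. The 3 prosurvival genes each had a coding peak and a second peak further 3′. The BH3-only genes Bbc3 and Bid had 1 peak each.

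Of the summits placed on the chosen transcripts, 5 of 13 in replicate 1 and 5 of 11 in replicate 2 lay within 200 nt of the stop codon. The shares were 38.5% (exact Clopper-Pearson 95% interval 13.9 to 68.4) and 45.5% (16.7 to 76.6), against 30.7% and 29.8% of all placed summits. The intervals held the share over all genes in each replicate. A summit near the start codon was found for 3 of 13 and 1 of 11, against 14.7% and 15.4% over all genes. The counts for the 10 genes include the Bad exon 1 summits, which also lie in an exon of Gpr137. Summits shared between genes in this way were left out of the shares over all genes. The 1 start codon summit of replicate 2 was that of Bad exon 1.

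On the sense strand of the transcript, GGAC was found no further than 50 nt from the summit for 6 of 13 peaks in replicate 1 and 8 of 11 in replicate 2. These shares, 46.2% (exact 95% interval 19.2 to 74.9) and 72.7% (39.0 to 94.0), held the shares over all placed summits, 56.1% and 56%, within their intervals. A DRACH lay within 50 nt of 11 of 13 and 11 of 11, against 93.3% of all placed summits in each replicate. The 2 summits without one were the 5′ UTR summits of Bak1 and Bcl2l11. All 11 peaks of replicate 2 overlap peaks of replicate 1, so these summits are not independent of each other. The Bad exon 1 summits are counted here too, while the shares over all genes leave out summits in exons of several genes. The replicate 2 summit of Bad exon 1 is 1 of the 8 with GGAC.

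In the rest of the intrinsic apoptosis pathway, 21 of 46 genes had a peak in both replicates, 8 in one and 17 in neither, where the share over all protein-coding genes was 30.9% and varied with length as given above. Among 15 other Bcl2 family genes the count was 2, in Bcl2l13 (2.41-fold and 2.54-fold), a mitophagy receptor, and Bcl2l15 (7.46-fold and 5.53-fold). The prosurvival gene Bcl2l2 (5.01-fold, 20 IP reads) and Bcl2l14 (6.69-fold, 13 IP reads) had a peak in replicate 2 only, and the mitophagy receptor Bnip3l (5.62-fold, 39 IP reads) in replicate 1 only. None was called in the other 10, which include Bcl2a1a, Bcl2a1b and Bcl2a1d. Those 3 are near-identical copies with 817 to 863 nt of exon sequence, and whether their reads can be placed uniquely was not tested.

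Of 10 apoptosome and caspase genes, 5 had a peak in both replicates. The highest mean folds were those of Cflar, the caspase 8 inhibitor c-FLIP, with 6.37-fold and 8.71-fold, Fadd, the death receptor adaptor, with 5.23-fold and 4.96-fold, and Casp9, the initiator caspase of the apoptosome, with 4.25-fold and 3.25-fold. Cycs (cytochrome c), Casp6 and Casp2 had none. Of 7 inhibitor of apoptosis genes and their antagonists, 5 had a peak in both, led by Birc3 (6.32-fold and 5.71-fold), Xiap, a direct caspase inhibitor (5.12-fold and 6.66-fold), and Birc2 (5.18-fold and 4.85-fold). Diablo, their mitochondrial antagonist, had none.

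Of 14 upstream regulators and turnover genes, 9 had a peak in both replicates. The transcription factor Foxo1 (7.87-fold and 7.81-fold) and Fbxw7, a ubiquitin ligase subunit that targets Mcl1 (5.58-fold and 5.77-fold), led this list. They were followed by Trim17 (5.45-fold and 4.49-fold), whose summits also lay in an exon of another gene. Trp73, Vdac1 and Vdac2 had none. Trp53 (2.33-fold, 160 IP reads) and Ddit3 (2.57-fold, 127 IP reads), named after their values were seen, had peaks in replicate 1 only. Bcl2 in replicate 1 and Bbc3 in replicate 2 had higher folds than any strongest peak among the other 46 genes.

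**Figure D4:**
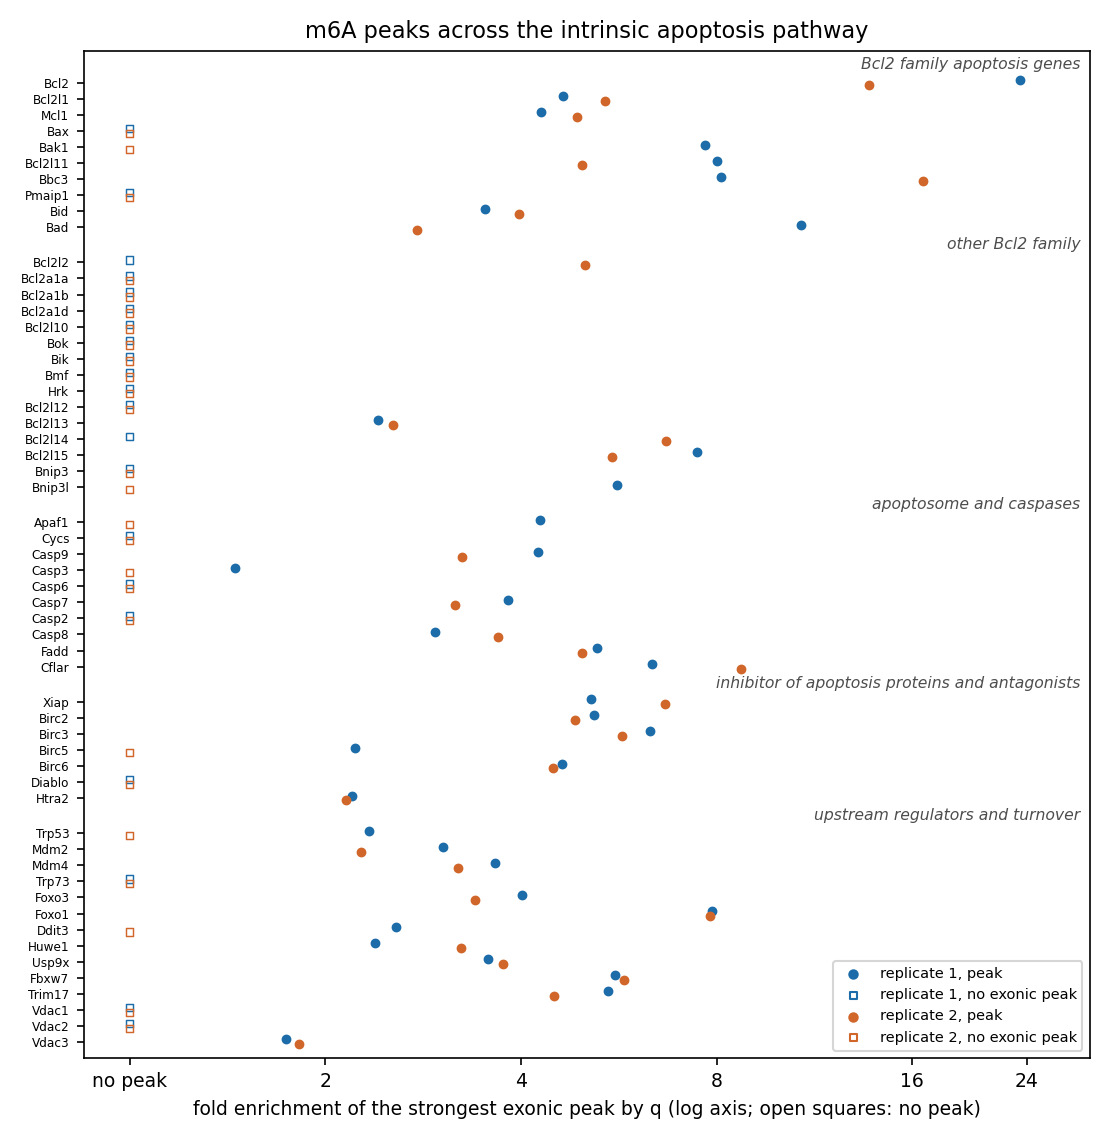
Fold enrichment of the strongest exonic peak by q (x axis, log scale) of the 10 Bcl2 family genes and 46 other apoptosis genes (y axis), grouped by list. Filled circles are peaks of each replicate, and open squares at the left mark a replicate without an exonic peak. Bcl2 (23.4 and 13.7) and Bbc3 (16.6 in replicate 2) reach the highest values, and 10 of the 15 other Bcl2 family genes have no peak in either replicate.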

How the data were processed

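Per the labels and the study's methods, the authors aligned reads to the mouse genome (mm10) with HISAT2 and called peaks with MACS2 version 2.1.1.20160309 for each m6A IP library. The control library and threshold are not given in the sources used here. The deposited lists hold, per peak, fold enrichment (a ratio with a pseudocount of 1), the authors' −log10 p-value and −log10 q-value, a score equal to 10 times the −log10 q cut to a whole number, and the summit offset (unit: other); no list gives counts. The lowest −log10 q was 1.31 and 1.30.

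From these values, the IP reads and background at each summit were recovered with Python 3.11.15 and SciPy 1.17.1 through the MACS2 formulas, matching 100% of peaks. Scaling was 0.874 and 1.05 IP reads per control read. Summits were placed on exons of the GENCODE M21 basic set and on the transcript with the longest coding sequence, translated with Biopython 1.88. Peaks overlapping by at least 1 bp were paired, and ratios of IP to background reads were given exact binomial 95% intervals. The 10 genes, lists and alternatives were chosen with earlier results of these data known. All 10 genes were named, with every other Bcl2 family gene that had a peak and, per further list, the 3 with the highest mean fold and up to 3 without a peak. The recovery was tested on simulated data.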

Additional observations from a re-analysis of the deposited data

Results flagged for a closer look

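Peaks inside the genes but outside the exons of the basic annotation were not used in the counts above, and 2 places held a peak in both replicates. An intron of Bcl2l11 held a peak of 14.4-fold enrichment on 22 IP reads over 0.679 control reads in replicate 1 (chr2:128134790-128135268) and of 8.95-fold on 14 IP reads over 0.60 in replicate 2, with summits 3527 and 3477 bp from the nearest Bcl2l11 exon. In Bad, a peak with its summit 13 and 14 bp outside exon 3 was 3.28-fold enriched on 94 IP reads in replicate 1 and 3.45-fold on 104 in replicate 2. That summit lies in a Bad exon of the comprehensive annotation. The input libraries themselves were not analysed here, and the source of the reads was not tested.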

How the results depend on the processing

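The 7 genes with a peak in both replicates remained 7 with peaks assigned by any exon overlap, with the comprehensive annotation, without summits in exons of other genes, and at a minimum −log10 q of 3 or 5 or of 20 IP reads. A minimum fold of 4 left 5, losing Bid and Bad, and took the other pathway genes from 21 to 11. Bcl2l11 passed these limits on q and fold through different sites in the 2 replicates. When overlapping peaks were required in both, a setting chosen after seeing the data, 7 genes had a shared site with no limit, 6 at either limit on q and 4 at a fold of 4. Counting a single replicate gave 7 and 8 genes, and the 8th was Bak1. The GGAC share of 58.3% over both replicates became 83.3% within 100 nt, 37.5% within 25 nt and 91.7% for DRACH, and ranged from 46.2% to 72.7% with a replicate left out. The stop codon share of 41.7% became 62.5% within 400 nt, 12.5% within 100 nt and 36.4% on the longest transcripts. The windows set these shares by their construction. The median fold of 6.49 ranged from 4.97 to 8.01 with a replicate left out, and was 4.60 as a mean over all peaks of a gene and 7.69 with no pseudocount. No result reversed. No paired analysis was possible because the values come from IP peak lists of 1 group and from no test between groups. Few control reads limit the fold of low-background peaks such as that of the Bcl2 3′ UTR (0.859 and 2 control reads).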
